A study of Mus musculus with 19 samples.

Results

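The report describes 8 genes of the cytokine receptor pathway in mouse thymocytes: the suppressors of cytokine signaling Socs1, Socs2, Socs3 and Cish, the kinases Pim1 and Pim2, and the transcription factors Stat5a and Stat5b. They were chosen by name, as 8 of the 28692 RNA rows of the deposited matrices, of which 19815 held at least 1 UMI (unique molecular identifier, a count of captured RNA molecules) in the cells kept. All 8 were detected. Over all kept cells they held 52539 UMIs (Socs1), 734 (Socs2), 4777 (Socs3), 1657 (Cish), 20081 (Pim1), 3888 (Pim2), 15356 (Stat5a) and 24771 (Stat5b).

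Thymocytes were profiled by CITE-seq, which reads RNA and antibody-tagged surface proteins from the same single cell. There were 19 lanes from 17 mice aged 4 to 8 weeks. The study asked how the CD4 and CD8 lineages part during positive selection, the step at which double-positive (DP) thymocytes that recognize MHC receive survival signals. Genotypes were compared at matched stages.

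CD4-fated thymocytes came from 2 AND mice, 2 OT-II mice and 2 MHCI-/- mice, and CD8-fated thymocytes from 2 F5 mice, 2 OT-I mice and 2 MHCII-/- mice. AND, OT-II, F5 and OT-I mice carry 1 rearranged T cell receptor (TCR) as a transgene, specific for MHC class II in AND and OT-II and for class I in F5 and OT-I, and the AND and the F5 strain were in addition Rag1-deficient. MHCI-/- mice lacked B2m and MHCII-/- mice lacked H2-Ab1, and both kept a diverse TCR repertoire. There were 5 wild-type B6 mice. Cells of the MHC-deficient mice and of wild-type replicates 1 to 3 were sorted as CD5+TCRb+, and all other mice, wild-type replicates 4 and 5 included, were measured unsorted. The genotype of a group and its sort therefore cannot be told apart, except through the wild-type mice.

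Cytokine receptors of the common gamma chain and IL-6 families signal through Janus kinases, which phosphorylate STAT proteins. STAT5, made as the close relatives STAT5A and STAT5B, acts downstream of the IL-2 and IL-7 receptors and raises transcription of its targets, among them Cish, Socs2 and the Pim kinases, which favor survival and growth. The SOCS proteins and CIS, the product of Cish, in turn bind receptors or Janus kinases and damp the signal. In the thymus, SOCS1 is known to hold down cytokine responses of DP thymocytes before selection. The study cites reports that IL-7 and other cytokines acting through STAT5 promote the CD8 fate. It saw no lineage-specific rise of STAT5 target expression along with the CD8 lineage factor Runx3.

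Levels are given as CPM, the UMIs of a gene per 1000000 RNA UMIs over the summed cells of a mouse. The mouse was the replicate throughout. The 19 lanes held 2550 to 9408 barcodes and 9893333 to 43303999 RNA UMIs, and 69282 cells were kept, with a median of 1496 to 7178 UMIs per cell by lane. No 2 lanes shared more than 35 barcodes, or more than 15 among cells kept. B2m RNA was at 48.5 and 48.9 CPM in the MHCI-/- mice against 396 to 1257 CPM in all others. H2-Ab1 RNA did not separate the MHCII-/- mice (8.77 and 8.80 CPM, against 2.79 to 278 CPM in all others), and Rag1 RNA did not separate the AND and F5 mice (5.69 to 54.3 CPM) from the OT-I mice (27.2 and 53.0 CPM). The antibody to class II (I-A/I-E) gave 2.21 and 2.24 UMIs per 10000 of the panel in the MHCII-/- mice against 23.8 to 114 in all others. The antibody to TCR Vb5 gave 109 to 165 in OT-I and OT-II animals against at most 20.6 elsewhere. In AND replicate 2 only 42.1% of barcodes passed the filters.

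Stat5a stood apart in the sorted wild-type mice, and its values there have to be known before the results are read. Over all kept cells, wild-type replicate 1 held 17 Stat5a UMIs, or 1.02 CPM. Replicates 2 and 3 were at 24.6 and 21.4 CPM, and the unsorted replicates 4 and 5 at 52.7 and 53.8 CPM. The 12 other mice ran from 36.5 CPM (OT-I replicate 1) to 55.7 CPM (OT-II replicate 2), and the 4 sorted MHC-deficient mice were at 39.9 to 49.5 CPM. The neighboring genes did not follow. Stat5b was at 81.9 CPM and Stat3 at 47.6 CPM in wild-type replicate 1, within the ranges of the other mice (47.3 to 84.7 CPM and 35.6 to 73.8 CPM). Among 7794 genes well detected elsewhere, Stat5a was the only 1 at under 1/5 of the lowest other mouse in that animal. The cause was not tested. In the GENCODE M21 annotation (GRCm38), Stat5a lies on the forward strand of chromosome 11 at 100859351 to 100885169. It starts 8626 bases from the start of Stat5b (100780731 to 100850724, reverse strand), and its 3′ end overlaps that of Stat3 by 72 bases. Whether the counting separated the strands was not given in the sources used here, so reads in that overlap are uncertain. In the same annotation Socs1 lies on chromosome 16 (10782240 to 10785536), Socs2 on chromosome 10 (95385362 to 95417180) and Socs3 on chromosome 11 (117966079 to 117970047), all on the reverse strand. Cish lies on chromosome 9 (107296026 to 107302784), Pim1 on chromosome 17 (29490753 to 29496112) and Pim2 on chromosome X (7878262 to 7883432), all on the forward strand.

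**Figure D1:**
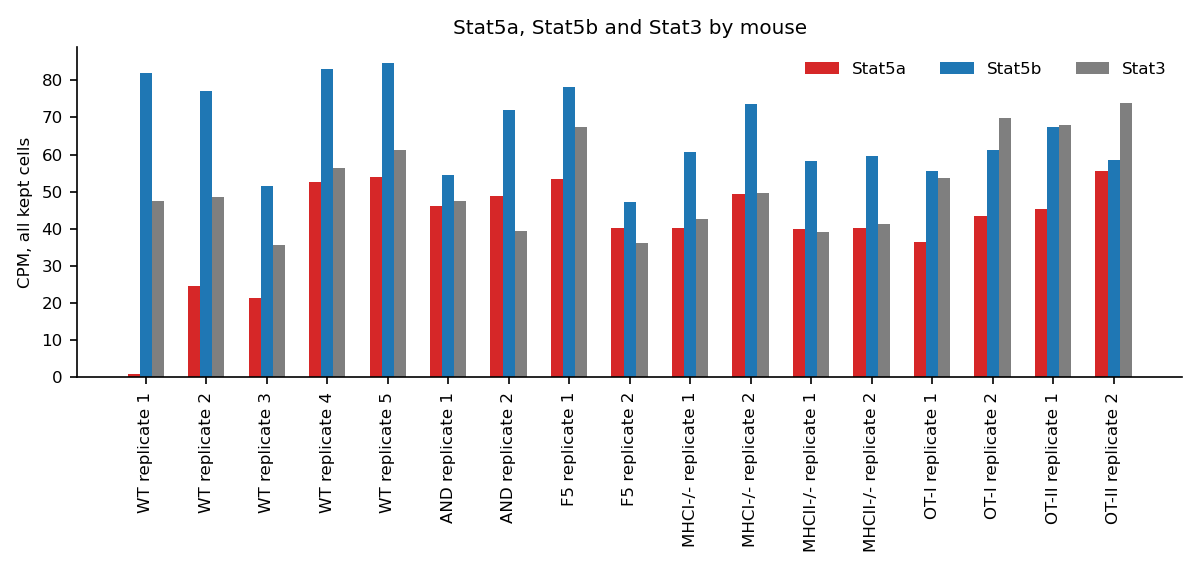
Bars give Stat5a (red), Stat5b (blue) and Stat3 (gray) in CPM over all kept cells of each of the 17 mice. Stat5a is at 1.02 CPM in WT replicate 1 and at 24.6 and 21.4 CPM in WT replicates 2 and 3, below the 36.5 to 55.7 CPM of the lineage-restricted mice, while Stat5b and Stat3 show no such gap.

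The members were first laid out over cell types in wild-type mice. Cells were clustered on RNA with the 8 members left out of the clustering, and a cluster was named after its markers (for example "signaled DP-like"). Steps between such clusters were not tested, and the values are a description. Socs1, which encodes a potent inhibitor of interferon and gamma chain cytokine signaling, had its highest median in quiescent DP-like cells. In the quiescent DP-like cluster, cells before selection marked by Rag1, the 5 mice had 502, 334, 438, 442 and 265 CPM of Socs1 (replicates 1 to 5). The signaled DP-like cluster, marked by Egr1 and Egr2, had 311, 265, 244, 307 and 194 CPM, lower than the quiescent cluster in every mouse. The level was lower again in the CD4 SP-like cluster (SP for single-positive, 127 to 239 CPM) and in the first of 2 CD8 SP-like clusters, led by Runx3 (104 to 169 CPM). The CD4 SP-like cluster scored higher on signaled DP than on CD4 SP markers (mean z score 1.57 against 0.78), so its name does not make its cells single-positive. Lower values still were found in the mature SP-like cluster, at 66.8, 85.7, 74.2, 79.4 and 55.9 CPM, and in the second CD8 SP-like cluster, at 53.3 to 85.2 CPM. In the interferon-like cluster, led by Ifit1 and Isg15, Socs1 ran from 128 to 172 CPM. Not all cells before selection were high: the DN-like cluster (double-negative cells) had 45.9 to 108 CPM in 4 mice, with a median of 81.9 CPM.

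Socs3, which binds the gp130 chain of IL-6 family receptors, was high, near 0 and then intermediate along the same clusters. The quiescent DP-like cluster had 31.4, 35.3, 16.9, 67.3 and 16.6 CPM. In the signaled DP-like cluster, the same mice had 0 to 2.67 CPM, and in the CD4 SP-like cluster 0 to 1.11 CPM, so neither range overlapped that of the quiescent cells. Levels were 2.49 to 19.5 CPM in the mature SP-like cluster and 7.04 to 23.8 CPM in the second CD8 SP-like cluster. The first CD8 SP-like cluster had 3.05 to 15.6 CPM, above the CD4 SP-like cluster in all 5 mice. These 2 clusters were not matched by stage, so this is no comparison of lineages.

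Cish and Socs2 were the members with the fewest UMIs. Cish, which binds the IL-2 receptor beta chain, was highest by median in the regulatory T cell (Treg)-like cluster. It had 32.5, 38.8, 46.2, 42.3 and 48.0 CPM there. In every other named cluster of wild-type mice its median was at most 8.43 CPM, in the interferon-like cluster, although 1 mouse reached 33.4 CPM in the small NKT-like cluster. Socs2, an inhibitor best known from growth hormone signaling, had 9.88, 9.57, 17.3, 8.84 and 9.59 CPM in the Treg-like cluster, and 0 to 26.0 CPM with a median of 8.19 CPM in the NKT-like cluster, on 14 UMIs. Over all 5 mice, it was found by 10 UMIs in the quiescent DP-like cluster, by 4 each in the signaled DP-like and the CD4 SP-like cluster, and by 1 in the mature SP-like cluster. A small cluster scored highest on erythrocyte markers but was led by the myeloid genes S100a8 and S100a9, so the erythrocyte name was dropped here. In it 4 mice held 35 Socs2 UMIs with a median of 26.4 CPM, the highest of all clusters.

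STAT5 dimers bind a palindrome of the form TTCNNNGAA, and 2 members carry it in the window around their RefSeq start. In the RefSeq promoter windows (GRCm38.p6, 250 bases before to 50 after a gene's start), 7 of the 8 members had a window. The motif, which reads the same on both strands, was in 8.30% of 32851 windows, and at least 2 copies were in 0.457%. The window of Cish held 2 copies and that of Socs3 held 1, and the windows of Socs1, Pim1, Pim2, Stat5a and Stat5b held none of these letters. The copies began at bases 1 and 12 from the RefSeq start of Cish and at -154 from that of Socs3. For both genes the GENCODE M21 start given above differs from the RefSeq start, and the stretches lie inside the GENCODE genes. The stretches around the 3 copies are printed here because no other member window held one, with the motif in capitals.
Cish (chr9:107296655-107296684, forward strand): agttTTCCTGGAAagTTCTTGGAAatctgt
Socs3 (chr11:117969501-117969530, reverse strand): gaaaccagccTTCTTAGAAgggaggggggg
A match of letters is a description and no evidence of binding.

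The Pim kinases went different ways along the same clusters. Pim1 had 124, 123, 80.9, 91.6 and 68.2 CPM in the quiescent DP-like cluster and 11.6 to 27.8 CPM in the CD4 SP-like cluster. It was again high in the Treg-like cluster, at 77.6, 104, 107, 80.8 and 59.2 CPM. This was not particular to these cells: a cycling-like cluster led by Hist1h2ap had 77.5 to 134 CPM and the DN-like cluster 70.9 to 108 CPM. Pim2 had 0 to 7.63 CPM in the quiescent DP-like cluster and 4.90 to 14.5 CPM in the signaled DP-like cluster. Its highest values were in the second CD8 SP-like cluster, marked by Nkg7 and Itgae, with 56.3, 20.4, 36.3, 22.5 and 53.3 CPM.

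By the median over mice, Stat5b was highest in the signaled DP-like cluster, and Stat5a in the Treg-like cluster, among the 10 named clusters plotted for wild-type mice. For Stat5a the lead was narrow: the median was 46.8 CPM there and 45.8 CPM in the quiescent DP-like cluster (2.69 to 68.5 CPM). The signaled DP-like cluster had 159, 144, 83.6, 179 and 173 CPM of Stat5b, the quiescent DP-like cluster 84.3 to 141 CPM, and the mature SP-like cluster 42.0 to 59.7 CPM. Stat5a had 46.8 and 43.3 CPM in the Treg-like cluster of replicates 2 and 3 and 95.9 and 109 CPM in that of replicates 4 and 5. In the mature SP-like cluster those 4 mice had 17.9, 19.3, 44.7 and 38.5 CPM, lower in each of them. Wild-type replicate 1 had 2.69 CPM of Stat5a in the quiescent DP-like, 1.55 CPM in the signaled DP-like and 0 CPM in both other clusters.

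**Figure D2:**
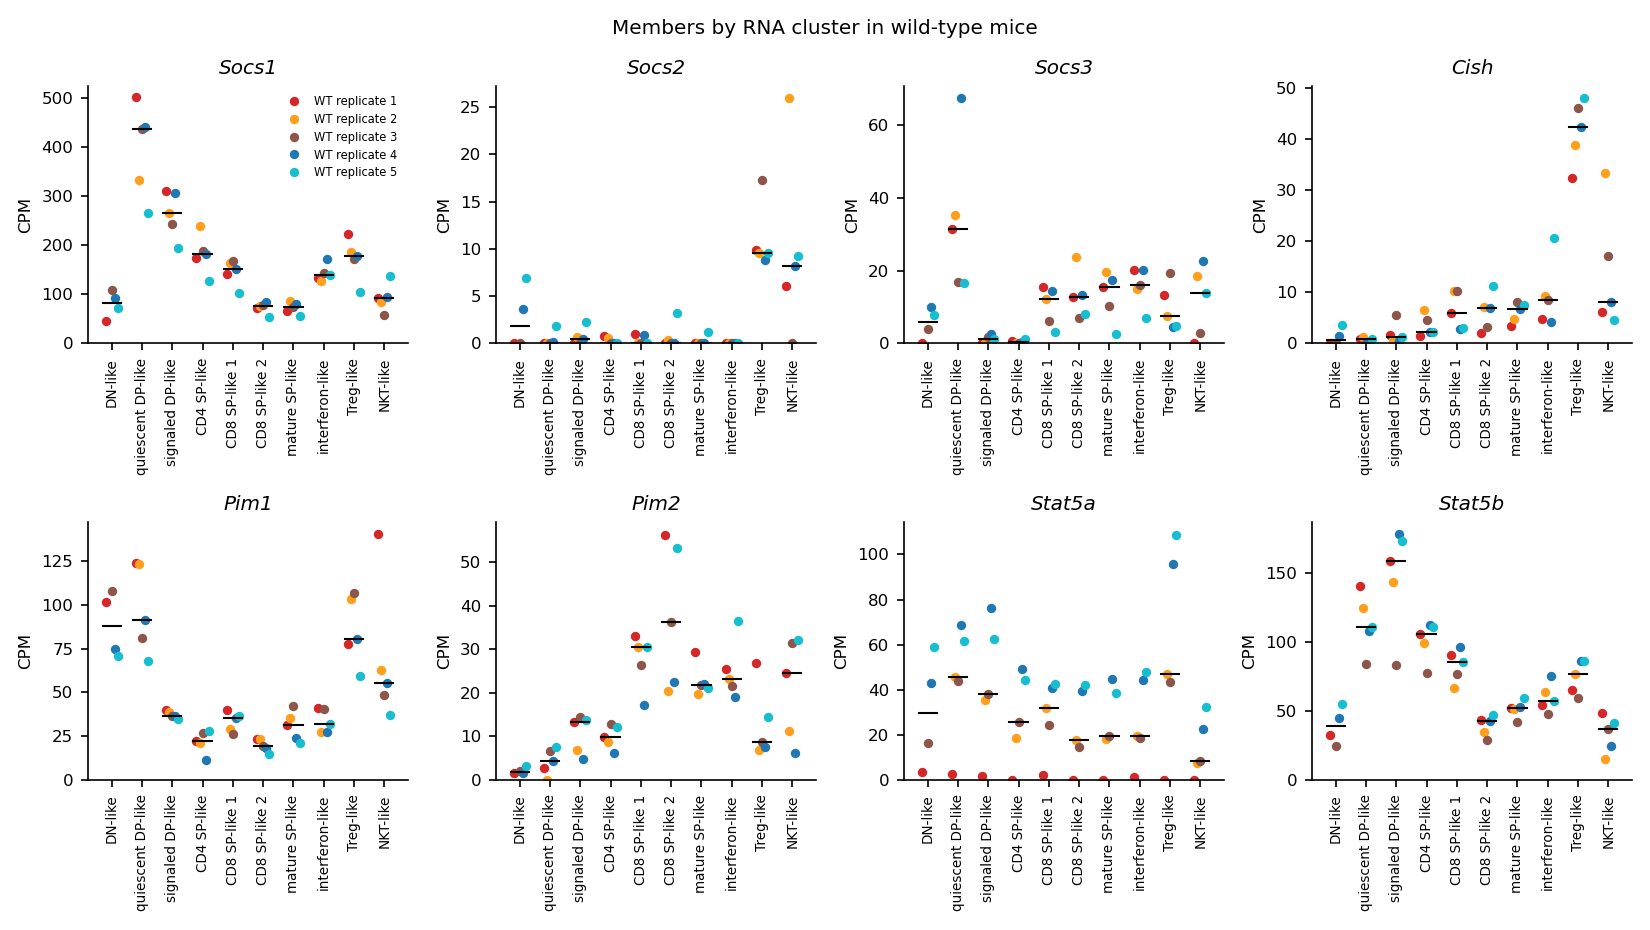
Each panel gives 1 member in CPM (linear axis from 0) for 10 RNA clusters of wild-type mice, with 1 point per mouse and a bar at the median. Socs1 goes from a median of 438 CPM in quiescent DP-like cells to 74.2 CPM in mature SP-like cells, Cish stands out in Treg-like cells at a median of 42.3 CPM, and the red points of Stat5a, WT replicate 1, lie near 0.

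The next question was whether CD4-fated and CD8-fated cells differed at matched stages. Cells of the clusters nearest to signaled DP, CD4 SP, CD8 SP or mature SP markers were gated on the antibodies to CD69 and CD127 (the IL-7 receptor alpha chain). This gave CD69-CD127-, CD69+CD127-, CD69+CD127+ and, for single-positive cells of the expected coreceptor only, CD69-CD127+. UMIs were summed per mouse and stage, and CD4-fated was set over CD8-fated with the genotype family as covariate (edgeR quasi-likelihood test, adjusted over all genes). The CD127 antibody was weak, at a median of 4, 2 and 1 UMIs per cell in the 3 experiments, which blurs the stages. AND replicate 2 had 15 cells in CD69-CD127- and was left out there.

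No member passed the test in the first 3 stages as designed. In CD69-CD127-, where 0.085% of 7062 genes were called, 4 members could be tested, none had an unadjusted p under 0.05, and DESeq2 called 0. In CD69+CD127- (0.243% of 8214 genes) 5 were tested, Pim1 and Pim2 had an unadjusted p under 0.05, and DESeq2 called 0. In CD69+CD127+ (2.24% of 9579 genes) 7 were tested, Pim2 and Stat5b had an unadjusted p under 0.05, and DESeq2 again called 0. Among these, Pim2 in CD69+CD127- ran from 2.17 through a median of 5.32 to 9.76 CPM in the 6 CD4-fated mice and from 6.68 through 13.1 to 32.6 CPM in the 6 CD8-fated mice. The log2 fold change was -1.41 ± 0.45 (SE) with an adjusted p of 0.44, and the ranges overlapped. It passed without a low-count filter (0.0013). Stat5b in CD69+CD127+ ran from 62.0 through 76.9 to 88.0 CPM in CD4-fated and from 54.2 through 59.99 to 71.0 CPM in CD8-fated mice, a log2 fold change of 0.32 ± 0.12 with an adjusted p of 0.24. With the replicate number as a block Stat5b passed (0.34, adjusted p 0.036).

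In mature CD69-CD127+ cells, where 8.34% of 7732 genes were called, Socs3 was the 1 member of 6 tested that passed. It ran from 7.62 through a median of 32.5 to 40.8 CPM in CD4-fated and from 2.14 through 11.6 to 27.3 CPM in CD8-fated mice. CD4-fated mice were on the high side and the ranges overlapped, with AND replicate 2 the lowest of its group at 7.62 CPM and F5 replicate 1 the highest of the other at 27.3 CPM. The log2 fold change was 1.15 ± 0.35 and the adjusted p 0.04999, on the threshold. The call was lost under 14 of 22 alternatives, which gave 0.94 to 1.46 with adjusted p from 1.1e-05 to 0.22. Of these, 8 left out 1 mouse: AND replicate 1, MHCI-/- replicate 1 or 2, MHCII-/- replicate 1 or 2, OT-I replicate 1, or OT-II replicate 1 or 2. Pim2 missed it from the other side, with a log2 fold change of -0.85 ± 0.27 and an adjusted p of 0.059. It passed under 6 of 22 alternatives: by DESeq2 (0.019), without a low-count filter (0.0022), with the replicate number as a block (0.035), and without MHCI-/- replicate 2, OT-I replicate 1 or OT-I replicate 2 (0.037 to 0.043). Its CD4-fated levels were 0 to 24.9 CPM (median 10.1) and its CD8-fated levels 19.6 to 42.7 CPM (median 28.7). For Stat5b the log2 fold change was 0.45 ± 0.16 with an adjusted p of 0.097, and it passed under 2 of 22 alternatives, without OT-I replicate 2 (0.038) or OT-II replicate 2 (0.048).

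Other genes of the pathway were tested in the same way. Of 36 further pathway genes, 0, 0, 2 and 7 were called in the 4 stages in order, with 32, 33, 35 and 32 of them tested, against 0.085%, 0.243%, 2.24% and 8.34% of all genes. Il2rb, the beta chain shared by the IL-2 and IL-15 receptors, was lower in CD4-fated cells at CD69+CD127+ (log2 fold change -1.72, adjusted p 0.0036) and at CD69-CD127+ (-2.24, adjusted p 6.4e-06). At the mature stage it ran from 0 to 11.7 CPM in CD4-fated and from 24.7 to 44.9 CPM in CD8-fated mice, without overlap. Il6ra, the IL-6 receptor alpha chain, was higher in CD4-fated cells at both stages (1.83, adjusted p 0.043, and 1.81, adjusted p 2.1e-05). Osm, a gene known as a STAT5 target, was higher by 1.00 (adjusted p 0.010) in mature CD4-fated cells, at 11.1 to 24.5 CPM against 5.59 to 9.54 CPM. The phosphatase genes Ptpn6 and Ptpn11 and the gene Stat4 were lower and Il4ra was higher in mature CD4-fated cells.

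The steps from stage to stage were then tested within each lineage, with the mouse as a block, so that each animal was compared with itself. The first step was CD69+CD127- over CD69-CD127-. In CD4-fated mice (1.66% of 8619 genes called) no member of 6 tested passed by edgeR, 1 had an unadjusted p under 0.05, and DESeq2 called 1. That was Socs3, lower in 5 of 5 mice, with a log2 fold change of -1.45 ± 0.39 and an adjusted p of 0.0501, and it passed under 5 of 13 alternatives. These gave log2 fold changes from -2.33 (without OT-II replicate 1) to -1.01. Socs3 went from 6.56 to 47.9 CPM before the step (median 15.3) to 2.502 to 9.02 CPM after it (median 6.31) in these 5 mice. In CD8-fated mice (1.71% of 9078 genes called) Pim1 was the only member of 6 tested that passed. It ran from 23.3 through 35.3 to 51.0 CPM before and from 17.3 through 27.1 to 36.9 CPM after, and was lower in 6 of 6 mice with a log2 fold change of -0.56 ± 0.14 (adjusted p 0.033). The call was lost under 8 of 13 alternatives, 5 of them the omission of F5 replicate 1 or 2, MHCII-/- replicate 1 or 2, or OT-I replicate 1 (adjusted p 0.055 to 0.16). The log2 fold change was -0.27 with lowered CD69 and CD127 thresholds (adjusted p 0.38) and -0.40 with raised ones (0.19). With library size in place of TMM scaling it was -0.51 (0.072).

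In the lineage-restricted mice Socs1 rose at the second step, where CD127 appears on the surface, in both lineages. In CD4-fated mice (2.84% called) it went from 52.5 to 192 CPM (median 78.9) up to 80.2 to 228 CPM (median 94.0), higher in 6 of 6 mice, with a log2 fold change of 0.41 ± 0.10 and an adjusted p of 0.025. This call was lost without MHCI-/- replicate 1, MHCI-/- replicate 2 or OT-II replicate 2 (adjusted p 0.073 to 0.085), by DESeq2 (0.057) and with library size in place of TMM scaling (0.082). In CD8-fated mice (6.01% called) it went from 32.5 to 187 CPM (median 55.3) up to 67.3 to 206 CPM (median 89.5), again higher in 6 of 6 mice. The log2 fold change was 0.48 ± 0.11, the adjusted p 0.0045, and all 13 alternatives kept the call. Wild-type mice were not part of this test. They ran from 142 through a median of 178 to 213 CPM before the step. After it they ran from 104 through 167 to 195 CPM, lower in all but replicate 2.

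Pim2 also passed in the CD4-fated mice at this step. It rose from 2.17 through 5.32 to 9.76 CPM up to 6.65 through 10.8 to 14.3 CPM, in 5 of 6 mice, with a log2 fold change of 1.104 ± 0.31 (adjusted p 0.045). The call was lost when any 1 of 5 mice was left out (AND replicate 1, MHCI-/- replicate 1 or 2, OT-II replicate 1 or 2, adjusted p 0.059 to 0.17) and with raised CD69 and CD127 thresholds (0.18), and DESeq2 gave Pim2 no adjusted p. Socs3 passed in these mice without a low-count filter (0.77, adjusted p 0.037) and with lowered thresholds (1.22, adjusted p 0.011), but not by the test as designed. In CD8-fated mice Stat5b fell, from 60.7 through 81.5 to 94.8 CPM down to 54.2 through 59.99 to 71.0 CPM, in 5 of 6 mice (log2 fold change -0.35 ± 0.10, adjusted p 0.022). That call was lost by DESeq2 (0.079), with raised thresholds (0.18) and without MHCII-/- replicate 1 or 2 (0.26 and 0.20). Pim2 passed in these mice with raised thresholds only (0.64, adjusted p 0.043). Cish and Socs2 were not tested in the steps, and their values are a description. Median Cish was 1.90 and then 6.56 CPM in CD4-fated mice (25 and 130 UMIs). In CD8-fated mice it was 1.17 and then 4.21 CPM (26 and 147 UMIs), and in wild-type mice 1.97 and then 5.19 CPM (11 and 127 UMIs). The ranges overlapped in each group. Socs2 held 2 and then 7 UMIs in CD4-fated and 1 and then 9 UMIs in CD8-fated mice.

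Of the further pathway genes, 5 of 35 tested were called at this step in CD4-fated mice (4 higher, 1 lower) and 6 of 35 in CD8-fated mice (4 higher, 2 lower), against 2.84% and 6.01% of all genes. Il7r RNA, which encodes the protein used for the gate, rose by 2.41 on the log2 scale in the CD4-fated group and by 2.09 in the CD8-fated group. Of 8 further genes known as STAT5 targets, 3 rose and 1 fell in each lineage. Bcl2 (survival), Ccnd2 (cell cycle entry) and Myc rose, by 0.59, 1.41 and 0.78 in CD4-fated and by 0.71, 0.76 and 0.49 in CD8-fated mice. Bcl6, a gene that STAT5 is known to repress, fell by 1.08 and 1.55.

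The last step, into mature CD69-CD127+ cells, changed the most members. In each lineage 5 of 6 members tested passed, against 17.5% of 8619 genes in CD4-fated and 30.8% of 9078 genes in CD8-fated mice. Socs1 fell in both. CD4-fated mice went from 80.2 to 228 CPM (median 94.0) down to 23.3 to 94.1 CPM (median 68.6), lower in 6 of 6, and CD8-fated mice from 67.3 to 206 CPM (median 89.5) down to 40.0 to 89.9 CPM (median 58.4), lower in 5 of 6. The exception was F5 replicate 1, at 84.3 and then 88.2 CPM, whose earlier stage held 34 cells. The log2 fold change was -0.82 in each lineage (± 0.12 and ± 0.11, adjusted p 9.5e-06 and 1.0e-06).

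Stat5a and Stat5b fell together at this step. Stat5a went from 34.2 through 43.2 to 46.9 CPM down to 21.7 through 29.3 to 35.0 CPM in CD4-fated mice and from 31.3 through 38.6 to 60.2 CPM down to 23.3 through 28.4 to 32.1 CPM in CD8-fated mice. It was lower in all 12 mice (log2 fold changes -0.40 ± 0.12 and -0.35 ± 0.11, adjusted p 0.014 and 0.011). The call was lost without MHCI-/- replicate 2 (adjusted p 0.16) or with other CD69 and CD127 thresholds (0.074 and 0.12) in CD4-fated mice, and without MHCII-/- replicate 2 (0.12) in the other group. Stat5b went from 62.0 through 76.9 to 88.0 CPM down to 23.3 through 42.4 to 70.7 CPM in CD4-fated mice. In CD8-fated mice it went from 54.2 through 59.99 to 71.0 CPM down to 25.7 through 39.0 to 53.4 CPM, with no overlap. It too was lower in all 12 mice, by 0.51 ± 0.12 and 0.68 ± 0.11 on the log2 scale (adjusted p 0.0041 and 1.2e-05).

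Socs3 rose in both lineages on the way to maturity. In CD4-fated mice it went from 3.00 through 7.10 to 13.3 CPM up to 7.62 through 32.5 to 40.8 CPM, higher in 6 of 6 mice, with a log2 fold change of 2.05 ± 0.25 (adjusted p 1.2e-06). In CD8-fated mice it went from 0 through 8.19 to 9.71 CPM up to 2.14 through 11.6 to 27.3 CPM, higher in 4 of 6 mice, with a log2 fold change of 0.70 ± 0.26 (adjusted p 0.036). The second call was lost under 6 of 13 alternatives, namely DESeq2 (0.061), library size in place of TMM (0.10), raised thresholds (0.083) and the omission of F5 replicate 1, F5 replicate 2 or MHCII-/- replicate 1 (0.085 to 0.20).

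Each Pim gene passed in 1 lineage at this step, and the difference between lineages did not pass for either. Pim1 passed in CD4-fated mice (log2 fold change 0.57 ± 0.15, adjusted p 0.0075), although only 3 of 6 mice were higher. Its levels went from 24.0 through 28.3 to 34.5 CPM to 21.7 through 34.0 to 57.3 CPM, and the call was lost without MHCI-/- replicate 1 (0.058) and with library size in place of TMM scaling (0.051). Pim2 rose in CD8-fated mice from 4.49 through 16.8 to 24.0 CPM up to 19.6 through 28.7 to 42.7 CPM, in 6 of 6 mice (0.96 ± 0.17, adjusted p 4.7e-05), and all 13 alternatives kept the call. In the other lineage the values were 0.61 ± 0.26 for Pim2 (adjusted p 0.11) and 0.28 ± 0.12 for Pim1 (adjusted p 0.070). Pim2 passed there without a low-count filter (0.045) and Pim1 without F5 replicate 2 (0.049).

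Of the further pathway genes, Il6ra rose in both lineages at the last step, by 1.35 and 1.73 on the log2 scale. Stat4 rose in both, and Il2rb (1.23), Ccnd2 (0.75) and Jak3 (0.48) passed in the CD8-fated mice. Bcl2l1, a survival gene of the Bcl2 family, fell in both, by 1.04 and 1.15. In all, 6 of 35 pathway genes tested were called in CD4-fated mice (5 higher, 1 lower) and 13 of 35 in CD8-fated mice (11 higher, 2 lower), against 17.5% and 30.8% of all genes.

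**Figure D3:**
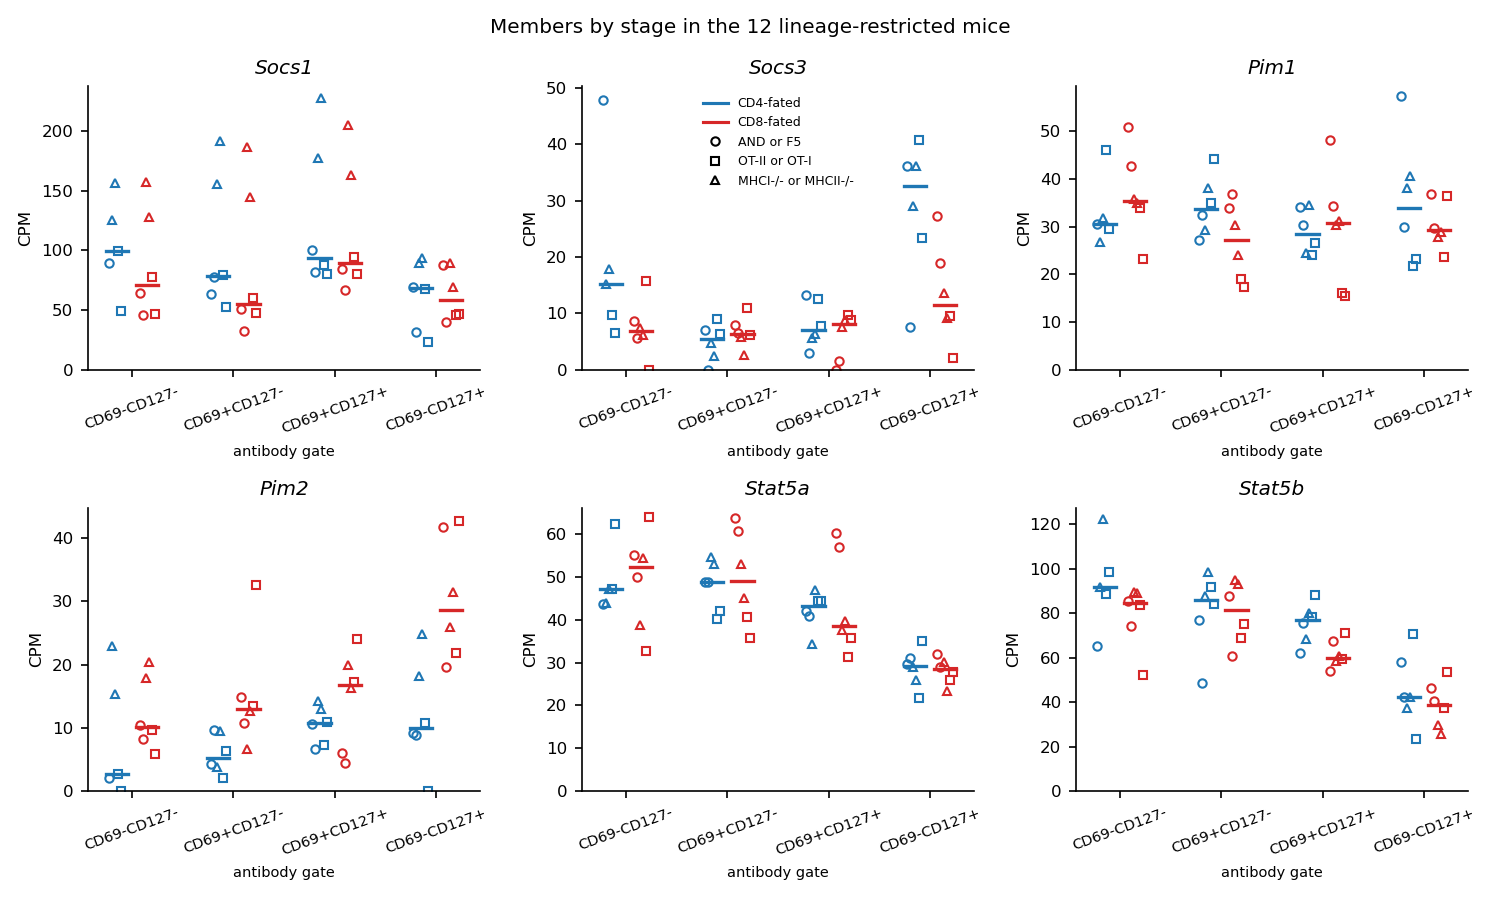
Each panel gives 1 member in CPM (linear axis from 0) over the 4 antibody gates, with a symbol for each of the 12 lineage-restricted mice, CD4-fated in blue and CD8-fated in red, and bars at the medians. Socs3 is at medians of 5.51 and 6.31 CPM in CD69+CD127- and 32.5 and 11.6 CPM in CD69-CD127+, and the triangles of Socs1, from MHC-deficient mice, lie above the other symbols in the first 3 gates.

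Whether a step differed between lineages was tested as an interaction over the 12 mice, and no member of 6 tested passed. The shares of all 9173 genes called were 0.0654%, 0.109% and 1.82% for the 3 steps. At unadjusted p under 0.05 there were 1, 0 and 1 members, Socs3 in both cases, and DESeq2 called none. For the last step the Socs3 difference was 1.35 ± 0.38 with an adjusted p of 0.0507. It passed under 7 of 19 alternatives and was 0.91 to 1.55 over all of them. The remaining differences at the last step were between -0.34 (Pim2) and 0.29 (Pim1).

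Socs1 differed by kind of mouse. It was lower in the 8 TCR transgenic mice than in the 4 MHC-deficient mice, and this comparison was chosen after its values were seen. It was tested within each stage with the lineage as covariate (edgeR, adjusted over all genes). In CD69+CD127- the MHC-deficient mice had 155 and 192 CPM (MHCI-/-) and 187 and 145 CPM (MHCII-/-), and the transgenic mice had 32.5 to 79.8 CPM with a median of 56.2 CPM. The groups did not overlap, with a log2 fold change of -1.48 ± 0.17 and an adjusted p of 2.6e-04. Socs1 was the 1 member of 6 tested that was called there, against 1.3% of 8601 genes. In CD69+CD127+ the MHC-deficient mice had 178, 228, 206 and 163 CPM and the transgenic mice 67.3 to 100.1 CPM (median 83.0), again without overlap. The log2 fold change was -1.20 ± 0.14 (adjusted p 7.5e-04, 1 of 7 members against 0.634% of 9944 genes). Both calls were kept under all 19 alternatives, with log2 fold changes of -1.57 to -1.35 and -1.26 to -1.09.

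At the edges of the sequence the difference was less firm. In CD69-CD127- the MHC-deficient mice had 126, 157, 158 and 128 CPM and the 7 transgenic mice 45.7 to 99.7 CPM, with no overlap and a log2 fold change of -1.07 ± 0.20 (adjusted p 0.043, 1 of 6 members against 0.287% of 7305 genes). Its direction was the same under all 18 alternatives, but the call was lost under 12 of them, 9 of which left out 1 mouse (adjusted p up to 0.24). Those were all the MHC-deficient mice, F5 replicates 1 and 2, OT-II replicates 1 and 2, and OT-I replicate 2. In CD69-CD127+ the values were 89.4, 94.1, 89.9 and 69.8 CPM against 23.3 to 88.2 CPM, and the groups overlapped through F5 replicate 1. There 0 of 6 members passed by edgeR (1.05% of 8178 genes), 3 had an unadjusted p under 0.05 and DESeq2 called 1. Socs1 had a log2 fold change of -0.84 ± 0.22 with an adjusted p of 0.073, and passed under 3 of 19 alternatives.

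Wild-type mice were not part of the test, and their values are a description. In CD69+CD127- the sorted replicates 1 to 3 had 178, 151 and 195 CPM of Socs1 and the unsorted replicates 4 and 5 had 213 and 142 CPM. In CD69+CD127+ the 5 had 167, 195, 133, 172 and 104 CPM. Every one of these was above the highest transgenic mouse of the stage. In CD69-CD127+ this was not so: wild-type CD4 cells had 68.0, 65.7, 71.1, 61.2 and 16.1 CPM (the last on 2 UMIs), below both MHCI-/- mice and within or below the range of the transgenic mice, and wild-type CD8 cells had 67.3 to 89.3 CPM. All 4 MHC-deficient mice belonged to the second experiment. Within it, the transgenic mice AND replicate 2 and F5 replicate 2 had 78.0 and 32.5 CPM in CD69+CD127- and 81.7 and 67.3 CPM in CD69+CD127+, below all 4 MHC-deficient mice. The part of the sort and of the experiment in this difference was not tested.

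Values within single RNA clusters are given as a description. In the CD4 SP-like cluster Socs1 ran from 214 to 259 CPM in 4 MHC-deficient, 127 to 239 CPM in 5 wild-type and 76.8 to 151 CPM in 6 transgenic mice. In the first CD8 SP-like cluster it ran from 124 to 230 CPM, 104 to 169 CPM and, in 7 transgenic mice, 37.7 to 83.0 CPM. Neither of these clusters showed overlap between transgenic and MHC-deficient mice. The groups did overlap in 3 other clusters that the gates drew on. The mature SP-like cluster, which the gates also drew on, is not described here by kind of mouse. In the signaled DP-like cluster MHC-deficient, wild-type and transgenic mice had 226 to 288, 194 to 311 and 76.6 to 322 CPM. An unnamed cluster nearest to signaled DP markers had 59.6 to 150 CPM (median 105) in 8 transgenic and 78.2 to 142 CPM (median 109) in 4 MHC-deficient mice, and the second CD8 SP-like cluster had 41.2 to 81.8 CPM in 5 and 70.1 to 94.1 CPM in 2 mice. The Socs1 UMIs of the groups also lay unequally over the clusters: the unnamed cluster held 1485 of transgenic and 286 of MHC-deficient mice, and the signaled DP-like cluster 270 and 1853. These counts mix the number of cells and their depth with the level of Socs1. The part of this uneven spread in the differences by stage was not tested. Before selection the ranges also overlapped: the quiescent DP-like cluster had 320 to 411 CPM in MHC-deficient, 265 to 502 CPM in wild-type and 74.0 to 473 CPM in 6 transgenic mice, the latter on 156 UMIs in all.

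No other member passed this comparison in any stage by edgeR. Pim2 came closest, in CD69-CD127-, at 22.9, 15.3, 17.9 and 20.5 CPM in the MHC-deficient against 0 to 10.5 CPM in the transgenic mice. The groups did not overlap, and the log2 fold change was -1.68 ± 0.38 with an adjusted p of 0.096. It passed by DESeq2 (0.0029) and without a low-count filter (0.018). Of the other pathway genes only Stat4 was called, in CD69+CD127- (1.31, adjusted p 0.049). Il7r RNA was at medians of 72.9 CPM in transgenic and 209 CPM in MHC-deficient mice in CD69+CD127+, with a log2 fold change of -1.56 and an adjusted p of 0.086.

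**Figure D4:**
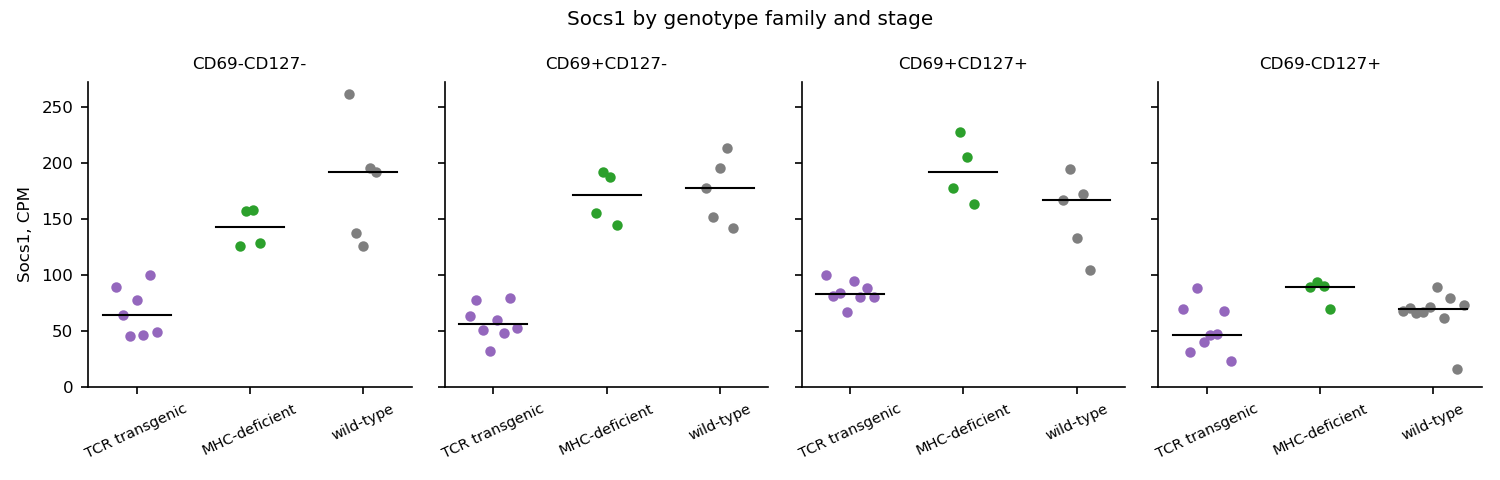
Points give Socs1 in CPM (linear axis from 0) per mouse in the 4 antibody gates for TCR transgenic (purple), MHC-deficient (green) and wild-type mice (gray, CD4 and CD8 cells apart in the last gate), with bars at the medians. In CD69+CD127- the transgenic mice lie at 32.5 to 79.8 CPM, below the 145 to 192 CPM of MHC-deficient and the 142 to 213 CPM of wild-type mice.

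Wild-type mice hold both lineages in 1 thymus, and mature CD4 cells were set over mature CD8 cells of the same animal. Here 3 of 6 members tested passed, against 18.9% of 6350 genes. Pim1 had 34.0, 52.7, 43.8, 27.5 and 32.3 CPM in the CD4 cells of replicates 1 to 5 and 32.5, 30.9, 19.8, 11.6 and 0 CPM in their CD8 cells. It was higher in the CD4 cells of 5 of 5 mice, with a log2 fold change of 0.79 ± 0.19 (adjusted p 0.0011). DESeq2 gave an adjusted p of 0.061. Replicate 5 had few UMIs in both gates, as given below for Socs3, so its direction is uncertain for Pim1, Pim2 and Stat5b as well.

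Pim2 went the other way. It had 32.4, 17.3, 20.7, 39.8 and 8.07 CPM in CD4 cells and 66.1, 21.2, 43.0, 23.2 and 65.7 CPM in CD8 cells, lower in the CD4 cells of 4 of 5 mice, all but replicate 4. The log2 fold change was -0.70 ± 0.21 (adjusted p 0.0095), and the call was lost without replicate 1 (0.12) or 3 (0.17) and by DESeq2 (0.25). Stat5b had 51.8, 51.3, 39.7, 49.0 and 72.6 CPM in CD4 cells and 42.6, 34.6, 29.8, 32.8 and 29.2 CPM in CD8 cells, higher in 5 of 5 mice (0.50 ± 0.17, adjusted p 0.024). Its call was lost without replicate 2, 3 or 4 (0.054 to 0.16), with lowered thresholds (0.11) and by DESeq2 (0.19). Stat5a differed by -0.01 ± 0.28, from 0 and 1.12 CPM in replicate 1 to 30.6 and 29.0 CPM in replicate 4.

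Socs3 had 19.4, 26.0, 12.4, 39.8 and 0 CPM in these CD4 cells and 15.7, 23.0, 6.62, 17.4 and 14.6 CPM in the CD8 cells. It was higher in 4 of 5 mice and did not pass (0.42 ± 0.26, adjusted p 0.30). Replicate 5 had few UMIs in both gates, 123929 and 137043, so that its 0 allows up to 24.2 CPM (3 UMIs). Of the other pathway genes, Il6ra (1.296), Il7r (0.58) and Il4ra (0.65) were higher and Il2rb (-2.43) was lower in CD4 cells. Stat4 (-1.07) was also lower there, and 10 of 28 tested were called in all, against 18.9% of all genes.

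The last comparison took CD25, the alpha chain of the IL-2 receptor, as a measure of the capacity to receive the signal that STAT5 carries. Within each of 11 mice (AND, OT-II, MHCI-/- and wild-type), the 5% of CD4+CD8a- cells with the most CD25 antibody were set over the 50% with the least. In 7 of the 11 mice, all wild-type and MHCI-/-, most CD25-high cells lay in the Treg-like cluster: the median over all 11 was 76.7% (0 to 97.96%) against 6.69% of CD25-low cells (0 to 11.2%). All 5 Treg markers together were at 132 to 3831 CPM in CD25-high and 123 to 389 CPM in CD25-low cells. In the OT-II mice 15.8% and 8% of CD25-high cells lay in that cluster. In the AND mice 4.05% and 0% did, and Foxp3 was at 2.47 and 0 CPM.

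Pim1, Stat5a and Socs1 were higher in CD25-high cells, 3 of 4 members tested against 11.5% of 5982 genes. Pim1 ran from 0 through a median of 111 to 200 CPM in CD25-high cells and from 21.5 through 34.3 to 49.99 CPM in CD25-low cells. It was higher in 9 of 11 mice, all but AND replicate 1 and OT-II replicate 2, with a log2 fold change of 1.54 ± 0.23 (adjusted p 2.9e-05). Stat5a ran from 0 through 49.1 to 141 CPM against 0.381 through 40.4 to 48.1 CPM, higher in 8 of 11 mice (0.96 ± 0.18, adjusted p 4.8e-04). Without wild-type replicate 1, whose values were 0 and 0.381 CPM, it was 0.96 with an adjusted p of 7.2e-04. Socs1 ran from 43.9 through 166 to 269 CPM against 62.3 through 104 to 161 CPM, higher in 8 of 11 mice (0.47 ± 0.13, adjusted p 0.016). Its call was lost by DESeq2 (0.067), with called doublets kept (0.055), with the 10% of cells highest in CD25 (0.17, adjusted p 0.46) and without MHCI-/- replicate 1, wild-type replicate 3 or wild-type replicate 4 (0.052 to 0.074).

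The low counts of Cish and Socs2 kept them out of the test, and their values are a description. Cish had 40.4, 98.2, 104, 113 and 111 CPM in the CD25-high cells of the 5 wild-type mice and 2.67, 7.90, 6.72, 5.14 and 10.5 CPM in their CD25-low cells. The MHCI-/- mice had 88.9 and 62.3 CPM against 9.69 and 8.85 CPM, and OT-II replicate 1 had 53.8 against 6.33 CPM. In OT-II replicate 2 the 27.6 CPM rested on 2 UMIs, under the 41.4 CPM that 3 UMIs would give, and cannot be told from its 13.0 CPM in CD25-low cells. The AND mice had 2.47 and 0 CPM (1 and 0 UMIs) against 6.12 and 1.38 CPM. Socs2 ran from 0 through 19.2 to 56.5 CPM in CD25-high cells, on 65 UMIs in all, and reached 0.917 CPM at most in CD25-low cells. Both were called when no low-count filter was used. Socs3 ran from 9.18 through 19.2 to 47.8 CPM against 1.75 through 11.4 to 22.3 CPM, and Pim2 from 0 through 10.1 to 20.2 CPM against 6.5 through 14.0 to 21.7 CPM, both untested.

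The 3 calls were not made outside the Treg-like cluster. Its cells were removed first and both gates were then drawn anew among the remaining CD4+CD8a- cells of each mouse, so that all 11 mice stayed in, with 25 to 77 CD25-high cells each. In the wild-type and MHCI-/- mice most of the former CD25-high cells were thereby left out. Of all genes 23, and none of the members, were called by edgeR. The log2 fold changes were then -0.19 for Socs1 (adjusted p 0.65), -0.015 for Pim1 (0.997) and 0.05 for Stat5a (0.97). This setting was added after the data were seen, and DESeq2 was not run on it. Of 28 other pathway genes tested in the full comparison, 4 were higher and 5 lower in CD25-high cells, against 11.5% of all genes called. Ifngr1 (1.37), Stat3 (0.71) and Stat4 (0.71) were higher, and Il7r (-1.27) and Il6ra (-0.63) were lower.

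**Figure D5:**
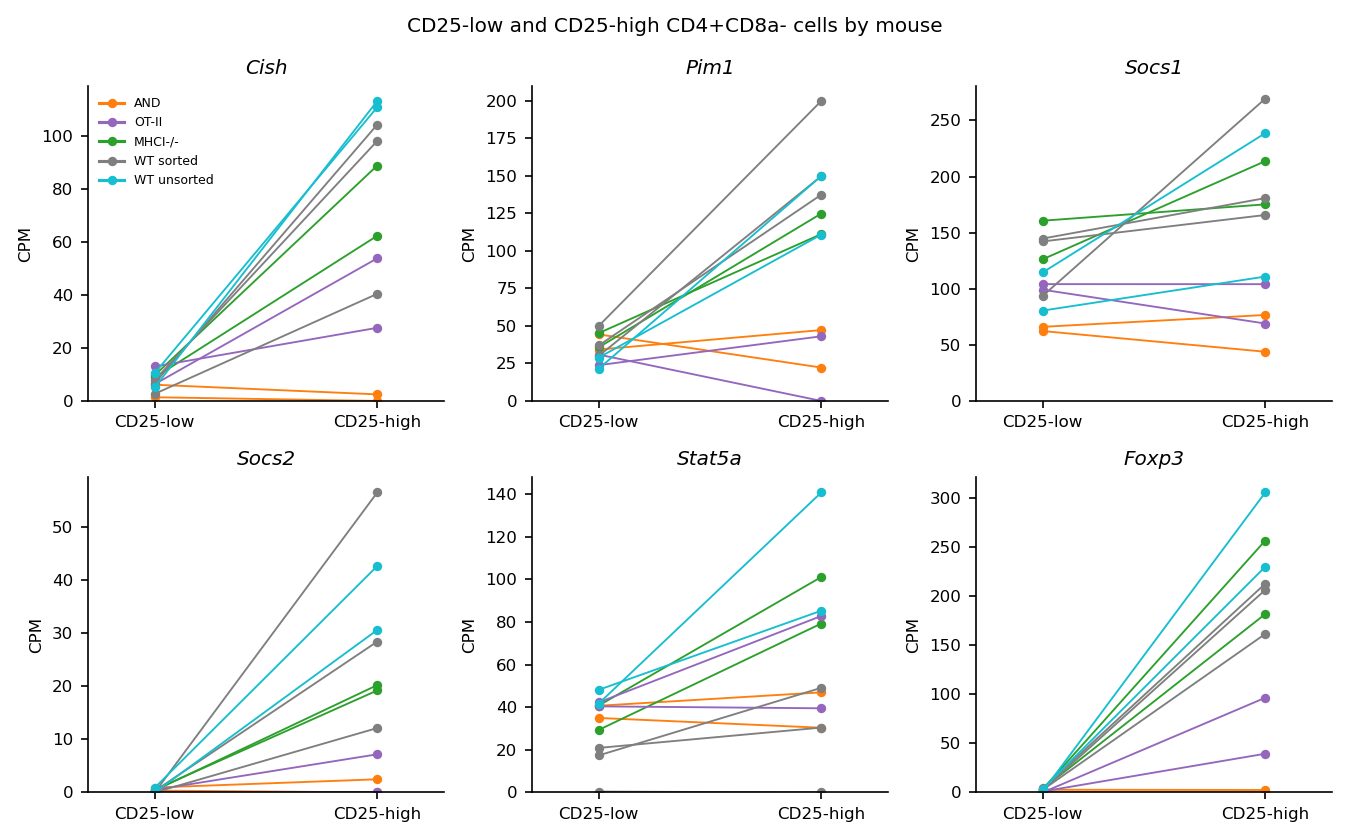
Each line joins the CD25-low and CD25-high CD4+CD8a- cells of 1 of 11 mice, in CPM (linear axis from 0), for 5 members and the Treg marker Foxp3. Cish reaches 40.4 to 113 CPM in the CD25-high cells of wild-type mice, while the lines of both AND mice stay near those of CD25-low cells.

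Over the 72 sums per mouse and stage, which share mice, libraries and depth, the genes whose log2(CPM + 1) followed each member most closely were named as a description. For Socs1 these were Cd69 (Pearson r 0.81), Ptma (0.80) and Cldn10 (0.76), and for Stat5b they included Gata3 (0.87) and Satb1 (0.85). The sums were cut by the CD69 antibody, so Cd69 RNA varied among them by design. Pim1 was closest to Uvssa (0.79), Pim2 to Irgm1 (0.73), Socs3 to Ms4a6b (0.58) and Stat5a to Exoc2 (0.58). Among the members themselves the highest correlation was 0.52, between Socs1 and Stat5b, and that of Stat5a with Stat5b was 0.07. The sums include the wild-type mice, where Stat5a went down to 1.97 CPM in CD69+CD127- and 0.392 CPM in CD69+CD127+. The correlations of Stat5a were not computed without these mice, so they do not show how the 2 genes went in the other animals.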

How the data were processed

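The authors sequenced 10x 3′ libraries and deposited, for each of 19 lanes, a filtered matrix of UMI counts of RNA and antibody tags, made with Cell Ranger 3.1.0 on mm10 per the submitters' processing notes. Counts were used as deposited. Cells with at least 200 genes, at most 15% mitochondrial UMIs, 1000 to 10000 antibody UMIs and at least 70 of 111 antibodies were kept, and 2772 called doublets (3.85%) were removed, which left 69282 of 85389 barcodes. Depth is given by lane in the report. It limits Socs2 and Cish most.

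Clusters came from 2000 variable genes, 30 principal components integrated over 4 groups of lanes, 20 neighbors and Leiden resolution 1.0 (scanpy 1.11.5). A cluster was named from fixed markers. The CD4 SP-like cluster scored 1.57 on signaled DP markers and 0.78 on CD4 SP markers (mean z score) and was named from the CD4 SP markers among its leading genes. Each sum over a mouse and gate had at least 20 cells, and the lanes of 1 mouse were added. CD69 and CD127 were cut at Otsu thresholds per experiment. CD25-low cells tied at 0 were ordered by barcode.

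Sums were tested with edgeR 4.0.16 (quasi-likelihood, TMM scaling, low-count filter, Benjamini-Hochberg adjustment over all genes tested, called at 0.05), with DESeq2 1.42.0 as alternative, after a check on simulated data. Errors are standard errors of the log2 fold change. P-values of the lineage and the transgenic comparisons rest on the spread between mice. Those of the other comparisons, with the mouse as a block, rest on how far changes within mice differ between mice. Alternatives changed the filter, scaling, doublets, thresholds, covariates and mice. All 8 members were named, with up to 4 genes of each pathway list, those of smallest p. Members and lists were chosen with earlier results of these data known. The comparison of transgenic with MHC-deficient mice was added after the values were seen. Results for some single genes are not reported here.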

Additional observations from a re-analysis of the deposited data

Results flagged for a closer look

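In 5 of 78 groups of mice, 1 mouse stood far from the rest by Dixon's test, where chance alone gives about 1 in 20. A group was 1 member in the CD4-fated, CD8-fated or wild-type mice of a stage, for members with a mean of at least 5 CPM. Socs2 and Cish were under that mean and left out. Pim1 in CD69-CD127- was at 46.1 CPM in OT-II replicate 1 (99 UMIs) against 26.7 to 31.9 CPM in the other CD4-fated mice. Pim2 in CD69+CD127- was at 32.6 CPM in OT-I replicate 2 (32 UMIs) against 6.68 to 14.9 CPM in the other CD8-fated mice. Socs1 in mature wild-type CD4 cells was at 16.1 CPM in replicate 5, on 2 UMIs, against 61.2 to 71.1 CPM. Socs3 in CD69-CD127- was at 47.9 CPM in AND replicate 1 (22 UMIs) against 6.56 to 17.9 CPM in the other CD4-fated mice. Stat5a in the same gate was at 62.3 CPM in OT-II replicate 2 (19 UMIs) against 43.5 to 47.2 CPM.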

How the results depend on the processing

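Over 111 values of members and 29 settings, 1749 of 1860 alternatives kept their side of the threshold, 77 lost the call, 32 gained one and 2 called values turned. Among the 1749, 105 values that were not called had the other sign. Socs1 falling at the last step in both lineages, Socs3 rising and Stat5b falling there in CD4-fated mice, Pim2 rising and Stat5b falling there in CD8-fated mice, Socs1 rising at the second step in CD8-fated mice, and Socs1 in CD69+CD127- and CD69+CD127+ of transgenic mice kept their calls throughout. The causes of the changes were not tested, except that fewer mice or cells entered where some were left out.

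The number of members called in a comparison moved by over 1.5 times under these settings, and changes of single members where it moved less stand beside their values in the report. Without a low-count filter they went from 0 to 1 between lineages in CD69-CD127- and in CD69+CD127-, from 1 to 2 in CD69-CD127+, from 0 to 1 at the first and from 2 to 4 at the second CD4-fated step, from 0 to 1 for the difference of the last step, from 3 to 5 for CD25, and, for transgenic mice, from 1 to 2 in CD69-CD127- and from 0 to 1 in CD69-CD127+. The member gained between lineages in CD69-CD127- was among those that the filter had left out of the test there. DESeq2 gave 2 between lineages in CD69-CD127+, 1 at the first and 0 at the second CD4-fated step (where Pim2 had no adjusted p), 1 at the second CD8-fated step, 0 in wild-type mature cells, and 2 and 1 for transgenic mice in CD69-CD127- and CD69-CD127+. Library size in place of TMM gave 0 between lineages in CD69-CD127+, 1 at the first and 1 at the second CD4-fated step, 0 at the first CD8-fated step, 1 for the difference of the last step and 0 for transgenic mice in CD69-CD127-. With doublets kept there were 0 between lineages in CD69-CD127+, 1 at the first CD4-fated step and 0 for transgenic mice in CD69-CD127-. Raised thresholds gave 0 between lineages in CD69-CD127+, 1 at the second CD4-fated and 0 at the first CD8-fated step, and 1 for the difference of the last step. Lowered thresholds gave 0 in each of CD69-CD127+ between lineages, the first CD8-fated step and CD69-CD127- of transgenic mice. Without the family covariate, or with cells of the other lineage kept, 0 were called between lineages in CD69-CD127+. With the Treg-like cluster left out and the gates redrawn in all 11 mice, 0 were called for CD25, and Socs1 (-0.19) and Pim1 (-0.015) turned.

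With the replicate number as a block, 1 member was called between lineages in CD69+CD127+ (Stat5b, adjusted p 0.036) and 2 in CD69-CD127+ (Socs3 and Pim2), and all genes called went from 6, 20, 215 and 645 to 2, 12, 434 and 906 over the 4 stages. The deviations of same-numbered mice correlated at 0.00377 to 0.906. They were above 0.1 in every family in CD69+CD127- and CD69+CD127+ and below it in the MHC-deficient mice in the other stages (0.00377 and 0.0656). In AND and F5 mice the number is also the experiment. In OT-I and OT-II mice both numbers share 1 experiment, but replicate 2 came from lanes integrated as a group of their own. Median UMIs per kept cell there were 7178 (OT-I) and 4214 (OT-II) in replicate 1, against 3155 and 2127.5 in replicate 2. The deviations of this family correlated at 0.615 to 0.906. Both numbers of the MHC-deficient mice share 1 experiment. The fit without the block was kept, so the main lineage test leaves these pairings out.

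Leaving out 1 mouse at a time gave 2 to 3 members for CD25, 1 to 3 in wild-type mature cells, 0 in the first 3 stages between lineages and 0 to 3 in CD69-CD127+. It gave 0 to 1 at the first step in each lineage, 0 to 2 and 1 to 3 at the second and 4 to 5 in both at the last. It gave 0 to 1 for the difference of the last step and 0 for the others, and 0 to 1, 1, 1 and 0 to 1 for transgenic mice over the 4 stages. Dropping clusters with under 5% wild-type cells changed no sum, since no cluster of the stages was among them.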

Other observations

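Socs2 and Cish were also read in cells outside the stages. Socs2 held 65 UMIs in the DN-like cluster of wild-type mice (0 to 6.89 CPM over 4 mice) and 14 UMIs in the NKT-like cluster (0 to 26.0 CPM). Cish in the Treg-like cluster was at 34.3 to 57.0 CPM in the MHC-deficient mice and at 11.5 to 28.0 CPM in 3 transgenic mice, against 32.5 to 48.0 CPM in wild-type mice, and this was not tested.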
